A study of Mus musculus with 4 samples.

Results

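The genes of the cell cycle and of DNA replication, 40 in number, were followed across 4 spatial transcriptome sections of mouse brain organoids. The genes were taken from a list of symbols such as MKI67, MCM7, RRM1 and STIL, matched without regard to case and written below as mouse symbols, and all 40 were found in every section, out of 22218 genes listed in any section. They were described in 3 groups by role, 8 cyclins and kinases of G1 and of the entry into S phase, 12 genes of S phase and replication, and 20 genes of G2 and mitosis. Each section came from organoids grown from the CARLIN/Cas9 mouse embryonic stem cell line and was measured after 3 months of culture. Cryosections lay on printed arrays of barcoded poly-T spots, so that a spot reports the RNA of a small area that can hold several cells. Several organoids were frozen in a shared mold, and a section may therefore hold more than 1 organoid.

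All 4 cultures carried the CARLIN/Cas9 genotype, were embedded in Matrigel and matured in medium with B27 without vitamin A before day 9. From day 9 the VitaminA culture received B27 with vitamin A. The ATRA culture received 1 µM all-trans retinoic acid, the agonist of all retinoic acid receptors, and the BMS753 culture received 1 µM of an agonist of receptor alpha. The BMS961+BMS641 culture received 0.1 µM of the agonists of receptors gamma and beta, so its dose differed from that of the other ligands. There was 1 section per treatment. No difference between treatments could be tested, and a treatment cannot be told apart from the organoids, the section or the library that stand for it. Section quadrants (4 per section, giving 16 pairs in a comparison) are used below only to show how far values varied within sections.

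Dividing cells pass from G1, where D cyclins with Cdk4 or Cdk6 release E2F factors, into S phase, where the MCM helicase opens DNA for the polymerases. Cyclin B with Cdk1 then drives mitosis, in which spindle motors, Aurora and Polo kinases and the checkpoint proteins separate the chromosomes. In developing brain tissue these genes mark progenitor cells, while neurons leave the cycle, and D cyclins and Cdk6 can also be expressed outside division.

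S phase genes are known to carry E2F sites in their promoters, and mitosis genes a cell cycle homology region (CHR) near CCAAT boxes. The RefSeq promoter table (GRCm38.p6, 250 bases before to 50 bases after a gene's outermost start) held 32 of the 40 genes and 27025 genes in all. Ccnd1, Ccnd2, Ccne2, Mcm4, Ccna2, Aurkb, Kif20a and Tpx2 were not matched. TTTGAA, searched on both strands as the CHR, was in 12 of 16 mitosis promoters, in 1 of 11 S phase promoters (Mcm2), in 0 of 5 G1 promoters and in 18.2% of all promoters. The E2F letters TTTCCCGC, TTTGGCGC, TTTCGCGC and TTTGCCGC, on both strands, were in 7 of 11 S phase promoters, in 1 of 16 mitosis promoters (Cdk1), in 1 of 5 G1 promoters (Cdk2) and in 2.33% of all promoters. CCAAT, on both strands, was in 15 of 16 mitosis promoters, 9 of 11 S phase promoters and 1 of 5 G1 promoters, against 38.0% of all promoters. None of the motifs contains another, though neighbouring matches can share an end base. The S phase and mitosis groups thus differed in promoter letters as they do in role, and the plot of motif shares by group shows this split.

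**Figure D1:**
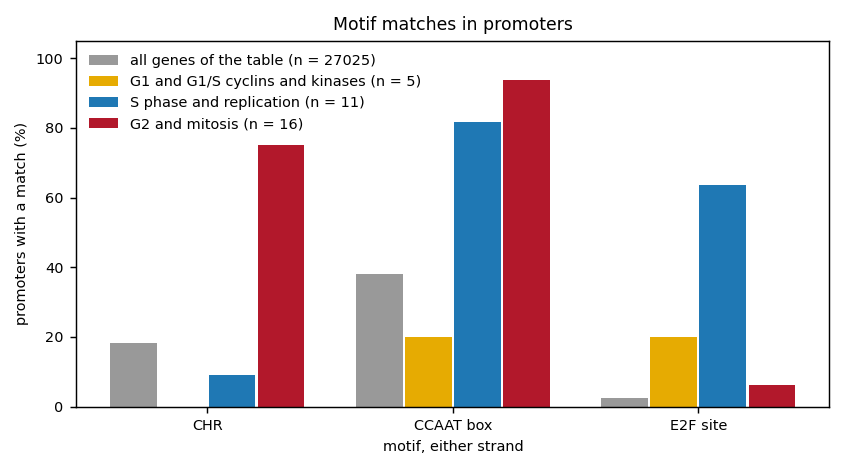
The bars give the percent of promoters with at least 1 match, for the CHR, CCAAT and E2F letters, in all 27025 genes of the RefSeq table and in the 5 G1, 11 S phase and 16 mitosis genes matched to it. The CHR was in 75.0% of the mitosis promoters and the E2F letters in 63.6% of the S phase promoters, against 18.2% and 2.33% of all genes.

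The genes that differed most between sections are shown with the 150 bases before their start, 5′ to 3′ on the strand of the gene, with matches to the motifs in capitals. They were chosen after their values were seen, so that genes with like and unlike patterns across sections can be set side by side. Coordinates are of GRCm38.p6, whereas the deposited data used mm9.
Mcm7, chr5:138171884-138172033, minus strand: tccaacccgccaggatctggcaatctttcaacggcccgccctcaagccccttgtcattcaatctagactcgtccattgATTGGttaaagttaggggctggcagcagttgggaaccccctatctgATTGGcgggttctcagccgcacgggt
Rrm1, chr7:102441545-102441694, plus strand: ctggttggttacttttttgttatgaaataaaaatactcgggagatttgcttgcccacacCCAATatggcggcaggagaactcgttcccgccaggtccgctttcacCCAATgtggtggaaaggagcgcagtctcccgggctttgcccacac
Stil, chr4:114999968-115000117, plus strand: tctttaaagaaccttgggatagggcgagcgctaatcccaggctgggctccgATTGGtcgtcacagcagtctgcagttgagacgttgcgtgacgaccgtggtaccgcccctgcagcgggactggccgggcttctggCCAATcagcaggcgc
Kif23, chr9:61946800-61946949, minus strand: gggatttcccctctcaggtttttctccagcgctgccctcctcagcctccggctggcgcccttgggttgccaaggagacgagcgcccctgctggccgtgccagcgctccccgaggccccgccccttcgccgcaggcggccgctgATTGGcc
Bub1b, chr2:118598061-118598210, plus strand: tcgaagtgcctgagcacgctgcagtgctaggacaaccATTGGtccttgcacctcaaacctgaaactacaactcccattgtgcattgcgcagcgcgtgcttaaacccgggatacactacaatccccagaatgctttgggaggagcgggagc
Cenpe, chr3:135212413-135212562, plus strand: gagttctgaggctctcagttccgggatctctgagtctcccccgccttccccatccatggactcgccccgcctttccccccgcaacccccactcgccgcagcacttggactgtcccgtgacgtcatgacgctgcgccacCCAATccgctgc
Mki67, chr7:135716380-135716529, minus strand: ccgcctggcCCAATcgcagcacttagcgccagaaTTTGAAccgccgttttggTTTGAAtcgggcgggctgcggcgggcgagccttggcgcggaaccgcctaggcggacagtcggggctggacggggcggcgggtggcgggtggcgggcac
Cdk1, chr10:69352913-69353062, minus strand: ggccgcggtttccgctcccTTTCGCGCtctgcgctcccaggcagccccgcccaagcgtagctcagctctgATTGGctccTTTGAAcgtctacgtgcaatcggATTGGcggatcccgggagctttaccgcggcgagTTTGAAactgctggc
All 8 stretches held CCAAT letters, in either orientation, and Mki67 and Cdk1 also held the CHR, each at 2 positions. Cdk1 alone of the 8 held E2F letters in this window. Mcm7, whose level was high in the VitaminA section, and Rrm1, whose level was high in the ATRA section, both showed 2 CCAAT matches here and no CHR. In the wider window Mcm7 held E2F letters and Rrm1 did not, and Bub1b and Kif23 held the CHR. A match is a run of letters and no measured binding,

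The authors had quantile normalised the signal within each section, and every spot of a section held the same number of positive genes, from 8604 in VitaminA to 12735 in BMS961+BMS641. The VitaminA, ATRA, BMS753 and BMS961+BMS641 sections held 552, 593, 469 and 365 spots, and without counts in the files the depth behind a spot is not known. The lowest values of a spot form a run that follows the order of genes in the file, here called the lowest class, and a gene was taken as seen in a spot when it lay above that class. Pan-neuronal markers were present as labelled, with 14 of 14 at 5 ppm or more in every section and a summed level between 1055 and 1644 ppm. Neural progenitor markers summed to between 76.1 and 145.3 ppm, with 6 or 7 of 14 at 5 ppm or more. Sox1 and Sox2 were not listed in any section, Fabp7 was not listed in BMS753 and Hes1 was not listed in BMS961+BMS641. Sums of markers are over those listed in a section. Of the markers of other cells, endothelial markers summed to between 371.4 and 918.4 ppm, microglia and macrophage markers to between 80.1 and 142.4 ppm, and epithelium markers to between 122.4 and 204.5 ppm in 3 sections and to 1616 ppm in BMS961+BMS641. Astroglia markers summed to between 341.7 and 588.7 ppm, oligodendrocyte lineage markers to between 148.9 and 319.8 ppm, and mesenchyme and matrix markers to between 135.1 and 368.2 ppm. Pluripotent cell markers summed to 419.8 ppm in VitaminA and to 161.3, 292.3 and 284.9 ppm in the ATRA, BMS753 and BMS961+BMS641 sections.

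Levels are the mean signal of a gene over the spots of a section, in ppm of the section's total signal, and the 4 values of a gene follow the section order VitaminA, ATRA, BMS753, BMS961+BMS641. They are not divided by transcript length, and levels of different genes were not compared. In such tissue signal, fewer dividing cells and less RNA per cell cannot be told apart. Of the 40 genes, 8 stayed below 5 ppm in every section, namely Cdk4, Ccne1, Mcm5, Pcna, Cdc6, Cdt1, Rrm2 and Cdc20. These include 5 of the 12 S phase genes, among them the sliding clamp Pcna, whose highest level was 0.668 ppm (VitaminA), and both loading factors of the helicase, Cdc6 at up to 4.44 ppm and Cdt1 at up to 1.56 ppm. The share of all genes below 5 ppm in every section was not computed, so these counts are no trait of the 40 genes. In ATRA or VitaminA, 30 of the 40 genes and 14794 of all genes reached 5 ppm. VitaminA listed 21639 genes and ATRA 20881. The highest level lay in VitaminA for 18 of the 40 genes (45.0%, beside 30.2% of the 19783 genes listed in every section), in BMS753 for 14 (35.0%, beside 44.1%), in BMS961+BMS641 for 5 (12.5%, beside 14.3%) and in ATRA for 3 (7.50%, beside 11.4%). With the lowest class set at 0 these counts became 20, 12, 5 and 3, beside 35.1%, 37.8%, 14.7% and 12.5% of all genes, since Ccnd1, Aurkb and Plk1 moved from BMS753 to VitaminA and Anln the other way. The median gene of the S phase group was seen in 15.4%, 2.78%, 5.65% and 5.75% of spots and that of the mitosis group in 15.5%, 10.3%, 12.7% and 17.7%, beside 11.6%, 8.26%, 9.38% and 12.1% over all genes. By group, 10 of the 20 mitosis genes were highest in VitaminA and 8 in BMS753 (11 and 7 with the lowest class at 0), and 6 of the 12 S phase genes were highest in VitaminA either way.

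**Figure D2:**
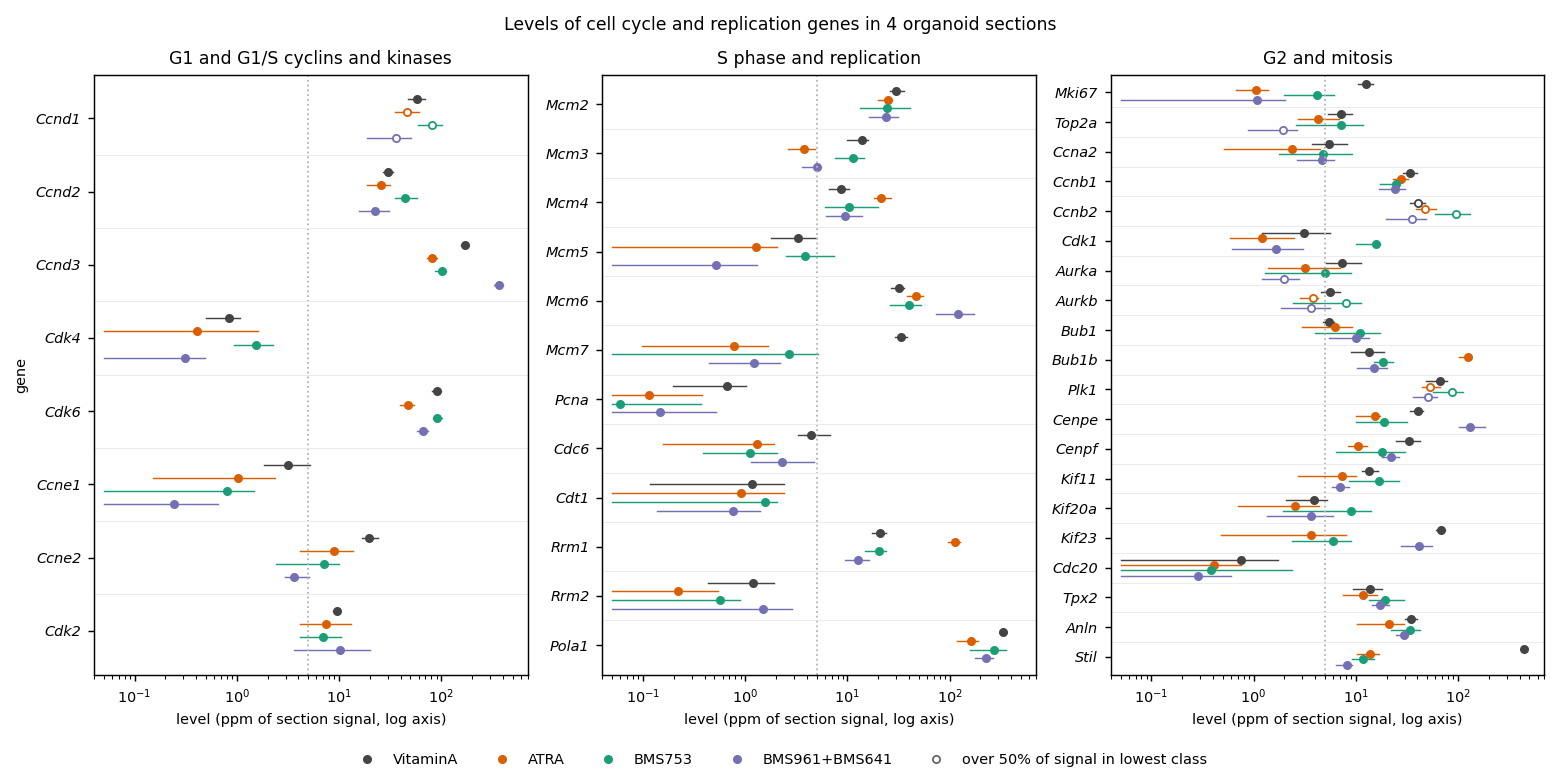
Levels of the 40 genes in the 4 sections, in ppm of the section's signal on a log axis, in the G1, S phase and mitosis groups. Points are section levels, lines run from the lowest to the highest quadrant (quadrants at or near 0 end at the left), the dotted line marks 5 ppm and open points mark levels with over 50% of their signal in the lowest class. Stil and Mcm7 stand apart in VitaminA, and Rrm1 and Bub1b in ATRA.

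Among the G1 genes, the D cyclin Ccnd3, an activator of Cdk4 and Cdk6, was at 170.6, 82.0, 101.3 and 370.9 ppm, and was seen in 85.0%, 60.0%, 56.9% and 97.5% of spots. It was highest in BMS961+BMS641, where the quadrants lay between 329.5 and 398.4 ppm, above every quadrant of the other sections. Its kinase partner Cdk6 was at 90.4, 47.8, 91.5 and 66.6 ppm, lowest in ATRA. Ccnd2, another D cyclin, was at 30.1, 25.6, 44.6 and 22.4 ppm.

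Ccne2, the E cyclin that activates Cdk2 at the start of S phase, was at 19.8, 9.01, 7.09 and 3.59 ppm, and was highest in VitaminA with no overlap of its quadrants with those of the other sections. Cdk2 itself was at 9.48, 7.53, 7.003 and 10.3 ppm, and its quadrants overlapped between sections. The D cyclin Ccnd1 was listed at 57.8, 45.9, 81.4 and 36.2 ppm, but between 43.1% and 76.1% of that signal was in the lowest class, where the value depends on the gene's place in the file. With that class set at 0 the order of its sections changed, to 34.9, 11.9, 25.1 and 9.46 ppm. The summed level of the 8 G1 genes was 382.2, 219.2, 335.3 and 510.6 ppm, and without Ccnd3 it was 211.5, 137.2, 234.0 and 139.7 ppm. The high sum of BMS961+BMS641 was therefore that of Ccnd3.

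In the S phase group the MCM helicase subunits did not share a pattern across sections. Mcm7 was at 33.8, 0.777, 2.66 and 1.23 ppm and was seen in 42.0%, 1.69%, 2.56% and 3.29% of spots, so that VitaminA stood apart from the ligand sections. Mcm6, another subunit of the same ring, was at 31.8, 46.4, 39.9 and 120.3 ppm and highest in BMS961+BMS641, in 69.9% of its spots. Mcm4 was at 8.70, 21.2, 10.4 and 9.41 ppm, highest in ATRA, where its lowest quadrant (18.1 ppm) overlapped only with the highest of BMS753 (20.1 ppm).

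Mcm3 was at 13.8, 3.80, 11.3 and 5.05 ppm, higher by level in VitaminA and BMS753 than in the others. It was seen in 15.8%, 3.54%, 5.12% and 6.58% of spots, so by that share BMS753 lay below BMS961+BMS641. In ATRA, BMS753 and BMS961+BMS641, 48.1%, 26.0% and 40.3% of its signal was in the lowest class. Mcm2 was at 29.6, 25.0, 24.1 and 23.7 ppm, and its quadrants overlapped between all sections. The highest section was thus VitaminA for Mcm2, Mcm3 and Mcm7, ATRA for Mcm4 and BMS961+BMS641 for Mcm6, although the subunits form a single ring. Mcm5 stayed below 5 ppm, at up to 3.87 ppm in BMS753.

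Rrm1, the large subunit of ribonucleotide reductase, which makes deoxynucleotides, was at 21.0, 112.3, 20.2 and 12.8 ppm and was seen in 19.6%, 60.2%, 7.68% and 14.5% of spots. It stood high in ATRA, with quadrants between 96.0 and 125.2 ppm, while the small subunit Rrm2 was below 5 ppm everywhere, at 0.220 ppm in ATRA. Pola1, the catalytic subunit of DNA polymerase alpha, which starts new strands, was at 333.3, 161.3, 274.2 and 226.8 ppm and was seen in 95.7%, 67.8%, 67.6% and 81.9% of spots. The summed level of the 12 S phase genes was 482.7, 374.7, 389.9 and 404.5 ppm, highest in VitaminA. The VitaminA quadrants of this sum overlapped those of BMS753 and of BMS961+BMS641. With each spot divided by its total it was 477.9, 411.8, 343.6 and 489.1 ppm, highest in BMS961+BMS641. Without Pola1 the sum as deposited was 149.4, 213.4, 115.8 and 177.7 ppm, highest in ATRA, where Rrm1 alone gave 112.3 ppm.

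In the mitosis group the centriole duplication factor Stil showed the widest gap between sections. Stil was at 444.0, 13.9, 11.7 and 8.16 ppm and was seen in 96.7%, 15.5%, 12.8% and 17.5% of spots. In VitaminA its quadrants lay between 422.8 and 473.9 ppm, and in the other sections no quadrant exceeded 17.0 ppm. The summed level of the 20 mitosis genes was 852.6, 362.7, 416.0 and 411.5 ppm, with the VitaminA section above the rest. Without Stil the sums were 408.6, 348.8, 404.4 and 403.3 ppm, so most of the gap in the sum was that of 1 gene. With the lowest class at 0 the sums without Stil were 368.8, 283.4, 299.0 and 355.3 ppm. As deposited, Bub1b gave 125.1 ppm of the ATRA sum and Cenpe 131.7 ppm of the BMS961+BMS641 sum. Pluripotent cell markers also summed highest in VitaminA, as given above (8, 4, 7 and 5 of 11 markers at 5 ppm or more, none at 0). So did oligodendrocyte lineage markers (319.8, 219.1, 187.6 and 148.9 ppm, with 7, 5, 6 and 5 of 8 at 5 ppm or more), endothelial markers (918.4, 784.6, 401.3 and 371.4 ppm, with 6, 6, 6 and 5 of 7) and, by a small margin, astroglia markers (588.7, 341.7, 578.3 and 467.9 ppm, with 8, 7, 8 and 7 of 12). Of the pluripotent cell markers Dppa5a was not listed in ATRA, and of the endothelial markers Cldn5 was not listed in BMS753. The part of any of these marker groups in the levels of Stil and Mcm7 was not tested.

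Of the spindle motors, Kif23, which bundles the central spindle for cytokinesis, was at 68.2, 3.66, 5.95 and 41.8 ppm and was seen in 56.2%, 6.41%, 5.97% and 49.0% of spots, so that VitaminA and BMS961+BMS641 stood above ATRA and BMS753. Cenpe, the kinetochore motor that aligns chromosomes, was at 40.3, 15.3, 19.0 and 131.7 ppm and highest in BMS961+BMS641, where it was seen in 76.4% of spots. That section also held the high sum of epithelium markers (5 of 8 at 5 ppm or more there, 4 of 8 in each other section), whose part in the levels of Cenpe, Mcm6 and Ccnd3 was not tested. Kif11, which pushes spindle poles apart, was at 13.4, 7.26, 17.0 and 7.003 ppm. Kif20a, a motor of cytokinesis, was at 3.86, 2.53, 8.94 and 3.66 ppm, and its quadrants overlapped between sections.

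Bub1b, which encodes the checkpoint kinase BubR1, was at 13.4, 125.1, 18.5 and 15.2 ppm and was seen in 13.0%, 64.1%, 10.9% and 17.8% of spots. It stood high in ATRA, with every quadrant at 101.3 ppm or more, whereas the related checkpoint kinase Bub1 was at 5.45, 6.20, 11.1 and 9.94 ppm with overlapping quadrants in ATRA and BMS753. The kinetochore protein Cenpf was at 33.1, 10.5, 18.1 and 22.0 ppm.

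Cdk1, the kinase of mitotic entry, was at 3.12, 1.20, 15.6 and 1.66 ppm and was seen in 9.78%, 4.55%, 23.0% and 9.86% of spots, so that BMS753 stood above the other sections. Its partner Ccnb1 was at 34.2, 27.8, 24.5 and 23.9 ppm, with no such rise in BMS753, and cyclin A2 (Ccna2) was at 5.44, 2.38, 4.81 and 4.68 ppm. Ccnb2, the other B cyclin, was listed at 40.4, 47.9, 94.9 and 35.4 ppm, with between 58.9% and 78.6% of its signal in the lowest class. With that class at 0 its levels were 11.9, 14.3, 45.3 and 8.11 ppm, and BMS753 remained the highest section.

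The proliferation marker Mki67 was at 12.6, 1.06, 4.17 and 1.07 ppm and was seen in 17.9%, 3.04%, 7.46% and 5.48% of spots, highest in VitaminA. Top2a, the topoisomerase that untangles chromosomes, was at 7.22, 4.28, 7.11 and 1.93 ppm, and in BMS961+BMS641 64.4% of its signal was in the lowest class. The Aurora kinase Aurka was at 7.29, 3.22, 4.94 and 1.98 ppm, with 52.0% of its BMS961+BMS641 signal in that class. Many of these levels lay below 5 ppm. Mki67 and Top2a, the usual markers of dividing cells, were each seen in under 20% of the spots of every section. The median over all genes was 11.6%, 8.26%, 9.38% and 12.1% of spots. Mki67 lay above that median in VitaminA and below it in the ligand sections, and Top2a lay below it in every section.

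Aurkb, the Aurora kinase of the chromosomal passenger complex, was listed at 5.59, 3.79, 8.03 and 3.65 ppm, with over 50% of the signal in the lowest class in the 3 ligand sections. With that class at 0 its levels were 5.53, 1.27, 3.88 and 0.772 ppm, highest in VitaminA and not in BMS753. The Polo kinase Plk1 was listed at 66.1, 53.5, 87.9 and 50.7 ppm, with between 44.2% and 77.8% of its signal in that class, and with the class at 0 at 39.1, 13.1, 22.7 and 23.5 ppm, highest in VitaminA and not in BMS753. Anln, which links actin and myosin in the cleavage furrow, was at 34.6, 21.0, 34.1 and 29.7 ppm. The spindle assembly factor Tpx2 was at 13.7, 11.7, 19.4 and 17.1 ppm, with overlapping quadrants.

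A description of single-section genes was made after these values were seen, asking which genes were above the lowest class in at least 40% of the spots of a section and in at least 2 times the share of any other section. Mcm7 and Stil met it in VitaminA, where 2.08% of the 19783 genes listed in every section did so. Rrm1 and Bub1b met it in ATRA, where 1.53% did. None of the 40 met it in BMS753, where 0.172% of genes did, or in BMS961+BMS641, where 2.72% did. In the maps of 6 genes over the spots, the signal of these 4 genes was found in every quadrant of the section in which they were high.

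**Figure D3:**
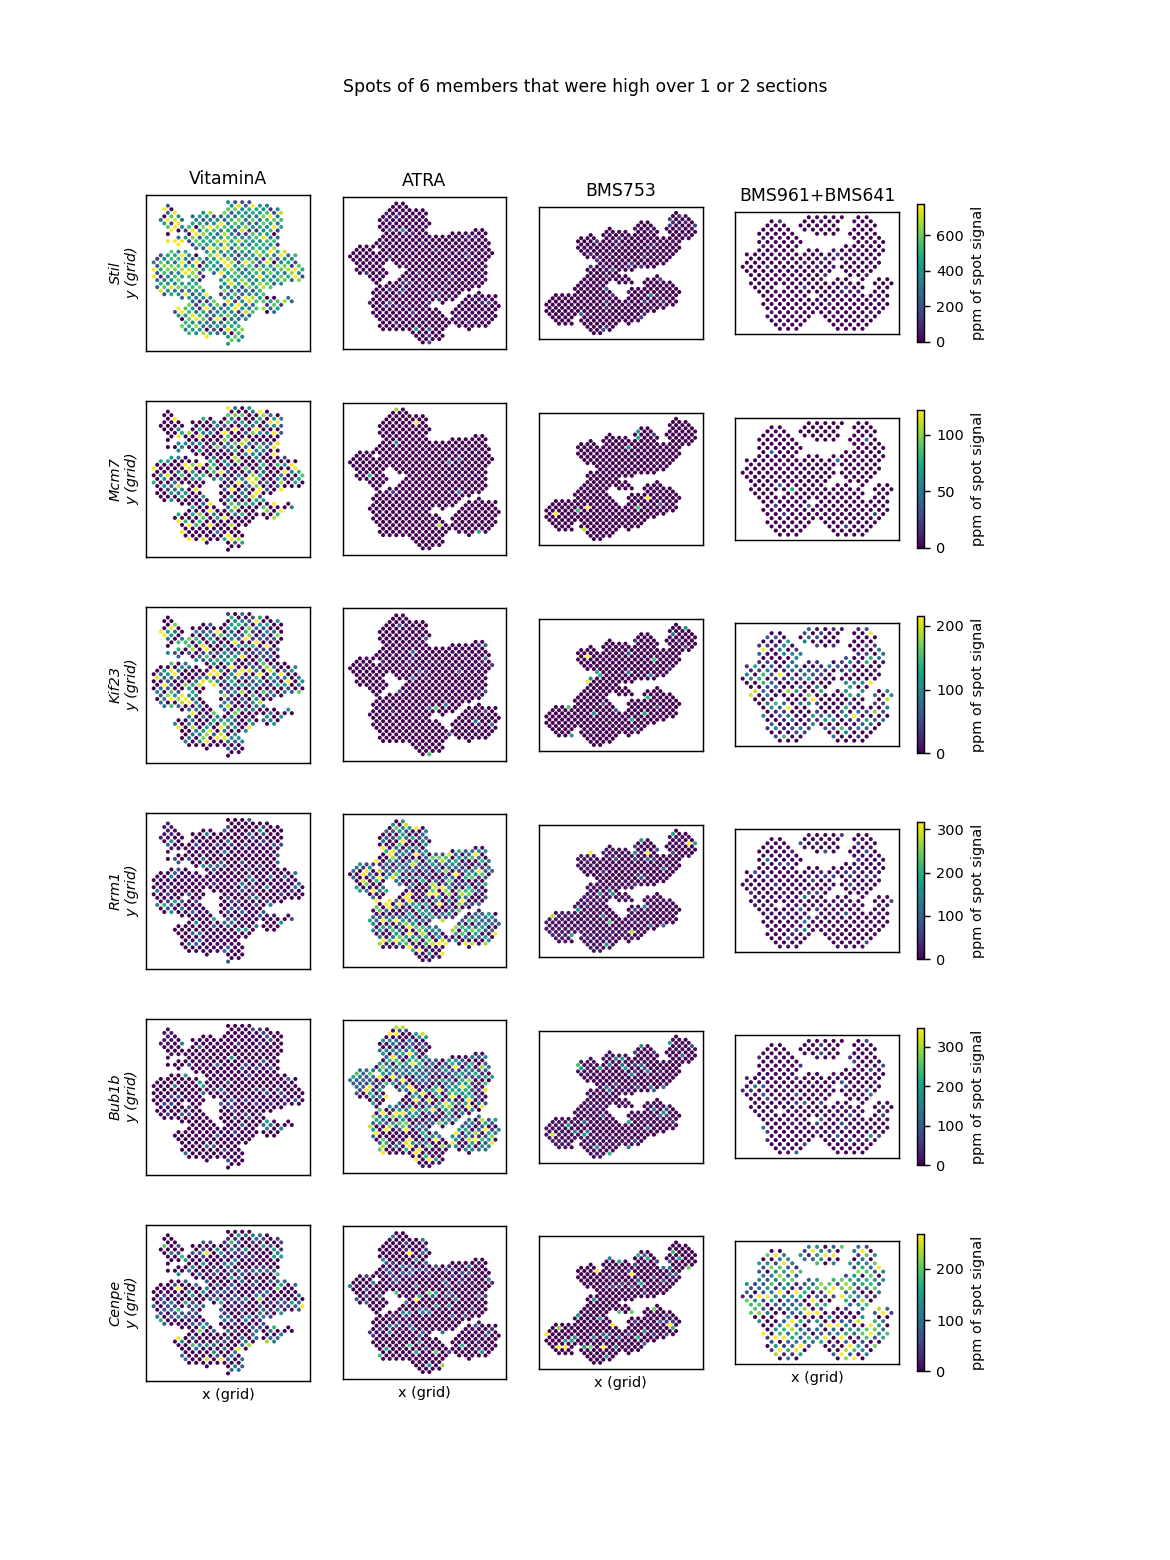
Each point is a spot at its place on the array grid, coloured by the gene's signal in ppm of that spot's total, for Stil, Mcm7, Kif23, Rrm1, Bub1b and Cenpe in the 4 sections, with a colour scale per gene. Stil was above the lowest class in 96.7% of VitaminA spots, Bub1b in 64.1% and Rrm1 in 60.2% of ATRA spots, and Cenpe in 76.4% of BMS961+BMS641 spots.

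Ratios between sections are given as log2 of the levels, each with 1 ppm added, for genes that reached 5 ppm in at least 1 of the 2 sections, and a gene was called when it passed 2-fold. The 1 ppm makes the ratios of low genes smaller than those of the levels. The median log2 ratio of all genes compared was itself away from 0, at -0.33 for ATRA, 0.31 for BMS753 and -0.25 for BMS961+BMS641, each against VitaminA, and at 0.71 for BMS753 against ATRA. Counts are therefore also given after centring each comparison on that median. The 3 comparisons with VitaminA share its section, so a gene that stood high or low there moved in all of them.

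ATRA was compared with VitaminA for 30 of the 40 genes. Bub1b (log2 ratio 3.13, quadrant pairs 2.35 to 3.77), Rrm1 (2.36, 1.96 to 2.77) and Mcm4 (1.20, 0.74 to 1.86) were at least 2-fold higher in ATRA, which is 10.0% of the 30 genes and 8.60% of all genes compared. At least 2-fold lower were 10 genes, 33.3% of the 30 and 22.9% of all genes. They were Stil (-4.90), Mcm7 (-4.29), Kif23 (-3.89), Mki67 (-2.72), Mcm3 (-1.62), Cenpf (-1.57), Cenpe (-1.34), Ccne2 (-1.06), Ccnd3 (-1.05) and Pola1 (-1.04). On the ppm + 1 scale Stil was 29.9-fold and Mcm7 19.6-fold lower. In all 13 the quadrants of the sections did not overlap, as in 8.33% (higher) and 21.8% (lower) of all genes. After centring, the same 3 genes were higher against 12.1% of all genes, and 7 were lower against 14.6%, since Ccne2, Ccnd3 and Pola1 no longer passed 2-fold.

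BMS753 was compared with VitaminA for 32 genes. Cdk1 (2.01, 0.73 to 3.04), Ccnb2 (1.21, 0.32 to 1.91) and Kif20a (1.03) were at least 2-fold higher, 9.38% of the 32 genes and 17.7% of all genes, a smaller share than that of all genes. For Kif20a the quadrants overlapped, with pairs from -1.10 to 2.28. At least 2-fold lower were 6 genes, 18.8% of the 32 and 10.0% of all genes, namely Stil (-5.13), Kif23 (-3.32), Mcm7 (-3.25), Mki67 (-1.39), Ccne2 (-1.36) and Cenpe (-1.04). Without Kif20a, the 2 higher and 6 lower genes had quadrants that did not overlap, beside 12.4% and 9.29% of all genes. After centring only Cdk1 was higher (9.06% of all genes) and 8 genes were lower (14.8% of all genes), with Ccnd3 and Cenpf added.

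BMS961+BMS641 was compared with VitaminA for 30 genes. Mcm6 (1.89, 1.02 to 2.66), Cenpe (1.68, 1.14 to 2.40) and Ccnd3 (1.12, 0.87 to 1.33) were at least 2-fold higher, 10.0% of the 30 and 10.2% of all genes, a share near that of all genes. At least 2-fold lower were 7 genes, 23.3% of the 30 and 19.9% of all genes, namely Stil (-5.60), Mcm7 (-3.96), Mki67 (-2.72), Ccne2 (-2.18), Top2a (-1.49), Aurka (-1.48) and Mcm3 (-1.29). In all 10 the quadrants did not overlap, as in 9.43% (higher) and 18.8% (lower) of all genes. After centring 4 genes were higher (13.6% of all genes), with Bub1 added, and the count of lower genes stayed at 7 (14.3% of all genes). Kif23, with ratios of -3.89 in ATRA and -3.32 in BMS753, was not called here, at -0.69 with quadrant pairs from -1.40 to -0.12.

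ATRA and BMS753, a ligand of all receptors and a ligand of receptor alpha, were given at the same dose and could be compared with each other, for 28 genes. Cdk1 (2.92, quadrant pairs 1.64 to 3.52), Kif20a (1.50), Mcm3 (1.35) and Kif11 (1.12) were at least 2-fold higher in BMS753, 14.3% of the 28 and 26.4% of all genes. The quadrants of Kif20a and of Kif11 overlapped. By the share of spots Mcm3 (5.12% in BMS753 and 3.54% in ATRA) did not pass 2-fold. Bub1b (-2.70, -3.07 to -2.09) and Rrm1 (-2.42, -2.99 to -1.96) were at least 2-fold lower, 7.14% of the 28 and 7.39% of all genes. Quadrants that did not overlap were found for 2 higher and 2 lower genes, beside 21.6% and 6.98% of all genes. After centring, Cdk1 alone was higher (6.77% of all genes), and Ccne2 and Mcm4 joined Bub1b and Rrm1 as lower (14.6% of all genes).

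**Figure D4:**
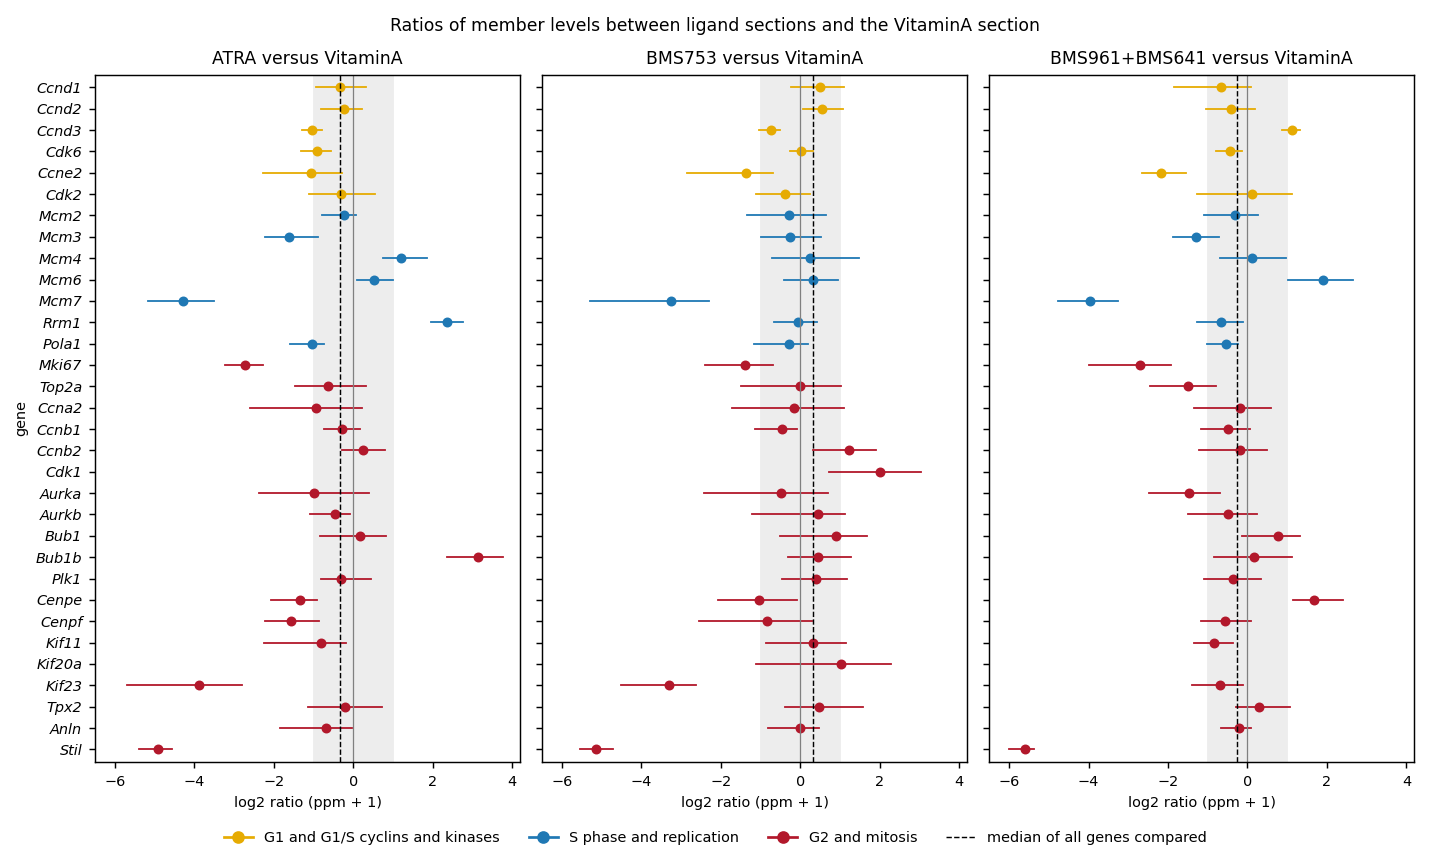
Log2 ratios of (ppm + 1) of the genes compared, for each ligand section against VitaminA, coloured by group. Points are section ratios, lines run over the 16 quadrant pairs, the grey band marks less than 2-fold and the dashed line the median of all genes (-0.33, 0.31 and -0.25); the 3 panels share the VitaminA section. Stil and Mcm7 lie far below the band in all 3 panels.

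As groups, the S phase and mitosis genes did not move as 1 block. The median log2 ratio of the S phase genes was -0.23 in ATRA (7 genes), -0.27 in BMS753 (7) and -0.55 in BMS961+BMS641 (7), each against VitaminA, beside the medians of all genes given above. That of the mitosis genes was -0.69 (17 genes), -0.02 (19) and -0.50 (17). Less the median of all genes, the S phase values were 0.10, -0.57 and -0.30, and the mitosis values -0.36, -0.33 and -0.24. BMS753 against ATRA gave -0.13 for the S phase genes (6) and 0.70 for the mitosis genes (16), beside 0.71 for all genes. The ranges within each group were wider than any of these medians, from -4.90 to 3.13 for the mitosis genes and from -4.29 to 2.36 for the S phase genes in ATRA.

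Among the other replication genes, 2 of 34 were at least 2-fold higher and 9 lower in ATRA, 3 and 6 of 37 in BMS753, and 6 and 11 of 36 in BMS961+BMS641, each against VitaminA. The shares higher were 5.88%, 8.11% and 16.7%, beside 8.60%, 17.7% and 10.2% of all genes, and the shares lower 26.5%, 16.2% and 30.6%, beside 22.9%, 10.0% and 19.9%. Dbf4, the activator of the replication kinase Cdc7, was at 135.0 ppm in ATRA and 2.19 ppm in VitaminA (log2 ratio 5.41), and was above the lowest class in 75.2% and 4.71% of spots. Orc2, of the origin recognition complex, was also higher in ATRA (1.75), and lower in BMS961+BMS641 (-1.07). The single-strand binding subunit Rpa2 was higher in BMS753 (4.33), at 63.2 against 2.20 ppm, and in BMS961+BMS641 (1.28), there with overlapping quadrants. The clamp loader subunits Rfc1 (2.48) and Rfc2 (2.07) and the chromatin assembly subunit Chaf1a (1.28) were higher in BMS961+BMS641.

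The 3 lowest replication genes were Gins4, a helicase cofactor, Wdhd1, which ties the helicase to polymerase alpha, and Dnmt1, the maintenance DNA methyltransferase, in every comparison with VitaminA. Gins4 was at 22.6 ppm in VitaminA, and its log2 ratios were -3.82, -3.56 and -3.80 in ATRA, BMS753 and BMS961+BMS641. Wdhd1 was at 153.2 ppm in VitaminA and had ratios of -3.74, -3.46 and -3.63. Dnmt1 was at 160.4 ppm in VitaminA and had ratios of -3.43, -3.11 and -3.28. As with Mcm7 and Stil, these are genes high in the VitaminA section, which the 3 comparisons share.

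Of the other mitosis genes, 1 of 40 was higher and 10 lower in ATRA, 5 and 3 of 41 in BMS753, and 5 and 11 of 42 in BMS961+BMS641. The shares higher were 2.50%, 12.2% and 11.9%, beside 8.60%, 17.7% and 10.2% of all genes. The shares lower were 25.0%, 7.32% and 26.2%, beside 22.9%, 10.0% and 19.9%. Incenp, the scaffold of the chromosomal passenger complex, was at 1687 ppm in VitaminA and lower in all 3 ligand sections (-2.44, -2.67 and -2.23), as was the spindle bundler Prc1 (-3.44, -1.69 and -2.27). The abscission factor Cep55 was lower in all 3 as well (-2.10, -1.74 and -1.73). Kif2c was lower in ATRA (-2.30) and BMS961+BMS641 (-1.28) and at -0.53 in BMS753. Higher were the centrosome kinase Nek2 in ATRA (3.08), the kinetochore subunit Nuf2 (1.80), Nusap1 (1.57) and Kif22 (1.34) in BMS753, and the kinetochore subunit Spc25 (3.51), Dlgap5 (1.58) and Cit (1.31) in BMS961+BMS641. Of these, Nusap1 was lower in ATRA (-1.13). Kif22 was above the lowest class in 9.59% of BMS753 spots and 7.07% of VitaminA spots, which is less than 2-fold.

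Of the regulators and inhibitors, 2 of 34 were higher and 12 lower in ATRA, 4 and 5 of 39 in BMS753, and 1 and 15 of 33 in BMS961+BMS641. The shares higher were 5.88%, 10.3% and 3.03%, beside 8.60%, 17.7% and 10.2% of all genes, and the shares lower 35.3%, 12.8% and 45.5%, beside 22.9%, 10.0% and 19.9%. Lin9, of the complex that binds the CHR, was at 344.7 ppm in VitaminA and lower in ATRA (-2.36) and BMS753 (-2.12), with -0.96 in BMS961+BMS641, and its partner Lin52 was lower in all 3 (-1.72, -1.44 and -1.21). The checkpoint kinases Chek2 (-2.07, -1.41 and -1.57) and Atr (-2.19 in ATRA and -2.02 in BMS961+BMS641, with -0.37 in BMS753) were lower too, as was E2f3 in ATRA (-1.94) and BMS961+BMS641 (-1.99), with -0.68 in BMS753. Fbxw7, which marks cyclin E for destruction, was higher in ATRA (1.72) and lower in BMS961+BMS641 (-1.01). E2f4 was higher in BMS753 (1.27) and lower in BMS961+BMS641 (-2.03). E2f8 just reached the 2-fold limit in BMS753 (1.00). It was above the lowest class in only 5.76% of BMS753 spots and 5.07% of VitaminA spots. Trp53, the p53 gene, was higher in BMS961+BMS641 (1.62) and lower in ATRA (-1.69).

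Between BMS753 and ATRA at the same dose, 8 of 35 other replication genes were higher and 4 lower in BMS753, 12 and 1 of 41 other mitosis genes, and 9 and 3 of 37 regulators. Rpa2 (5.47), Gins1 (2.07) and Nusap1 (2.71) were higher in BMS753, and Dbf4 (-5.27), Nek2 (-3.24) and Fbxw7 (-1.66) were lower. The shares higher in BMS753 were 22.9%, 29.3% and 24.3% in that order, beside 26.4% of all genes, and the shares lower 11.4%, 2.44% and 8.11%, beside 7.39%.

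Within sections, a spot held a median of 3 S phase genes above the lowest class in VitaminA and 2 in each ligand section. For mitosis genes the medians were 4, 2, 2 and 4, and without Stil 3, 2, 2 and 3. No S phase gene was above it in 2.17%, 9.61%, 18.1% and 7.95% of spots, and no mitosis gene in 0.543%, 11.3%, 18.3% and 4.93%. The count of genes above the lowest class in a spot moved with these counts, with a Spearman correlation over spots between 0.560 and 0.685 for S phase genes and between 0.631 and 0.804 for mitosis genes. Spots of a section share a library and differ in that count and in total signal, so these are descriptions over 552, 593, 469 and 365 spots.

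**Figure D5:**
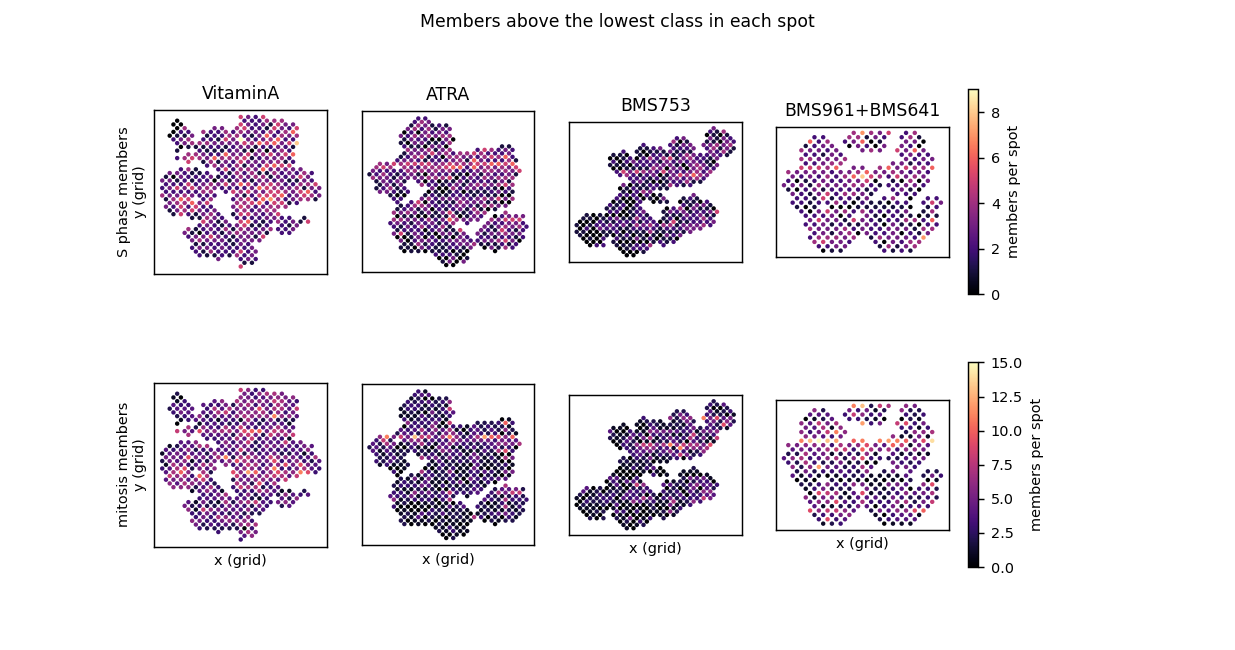
Each point is a spot at its place on the array grid, coloured by how many of the 12 S phase genes (top) or 20 mitosis genes (bottom) were above the lowest class. Medians were 3, 2, 2 and 2 S phase genes and 4, 2, 2 and 4 mitosis genes in the VitaminA, ATRA, BMS753 and BMS961+BMS641 sections.

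S phase and mitosis scores, each the mean over genes of scaled log2 signal, had a Spearman correlation over spots of 0.233, 0.483, 0.381 and 0.515 as deposited. After each spot was divided by its own total, the correlations were -0.0435, -0.0971, -0.0105 and -0.0801, so that the scores no longer rose together over spots. With the lowest class at 0 and no such division they were 0.322, 0.380, 0.336 and 0.436. Neighbouring spots were alike in the mitosis score as deposited, with Moran's I over 8 neighbours of 0.157, 0.294, 0.275 and 0.365, and after division by the spot total it was -0.0331, 0.0335, 0.0746 and 0.0146. For the S phase score Moran's I was 0.109, 0.126, 0.117 and 0.165 as deposited and 0.0888, 0.0279, 0.00364 and 0.0227 after division. The progenitor score had correlations with the mitosis score of 0.274, 0.609, 0.350 and 0.601 as deposited, and of 0.0438, 0.0461, -0.0663 and -0.0959 after division. The neuron score had correlations with the mitosis score of 0.452, 0.607, 0.421 and 0.682 as deposited, and of 0.0456, -0.142, -0.186 and -0.176 after division. As deposited these were near those of the progenitor score in ATRA and higher in the other sections. With the lowest class at 0 they were 0.509, 0.468, 0.402 and 0.519 for the neuron score. For the progenitor score they were then 0.323, 0.230, 0.213 and 0.426, lower in every section. The S phase score had correlations with the neuron score of 0.384, 0.551, 0.406 and 0.568 as deposited. After division these were 0.209, 0.219, 0.137 and 0.134, positive in every section. Those of the S phase score with the progenitor score were 0.221, 0.373, 0.213 and 0.494 as deposited. After division they were 0.0723, -0.123, -0.0220 and 0.0928.

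Edge spots, which lacked at least 1 of 8 neighbours on the grid, and interior spots were compared in the summed levels, with no test. The S phase genes summed to 465.9 ppm at the edge and 491.6 in the interior of VitaminA, 340.9 and 386.7 in ATRA, 392.5 and 388.5 in BMS753, and 448.3 and 377.7 in BMS961+BMS641. The mitosis genes without Stil summed to 402.1 and 412.1 ppm, 350.2 and 348.4, 388.3 and 413.0, and 397.2 and 407.1.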

How the data were processed

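The members and all gene lists were chosen with earlier results of these data known. The files deposited by the authors hold a signal for each gene in each spot, quantile normalised within the section and then scaled spot by spot, as was checked on the values. The scaling factor is not given in the sources used here. Spot sums differed by between 25.6-fold and 43.7-fold within a section, so a section mean gives spots with large sums more weight. The submitters' processing notes name the build mm9. Arrays, poly-T capture and paired-end sequencing are described in the labels' protocols, while the sources used here do not give the aligner, molecule counting, strand or spot filter. Without counts, the depth and its limit on precision are unknown.

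From the deposited signal, levels were computed as the mean over spots in ppm of the section total, and ratios as log2 with a pseudocount of 1 ppm for genes that reached 5 ppm in 1 of the 2 sections. With 1 section per treatment no test was made. Named were all 40 members, with ratios of those past 2-fold. From the pathway lists, the 3 highest and 3 lowest ratios past 2-fold were named among genes of at least 20 ppm with no overlap of quadrants. Alternatives changed the pseudocount, filter, scaling, tie handling, centring, summary and quadrants. The levels, the ratios, the finding of the lowest class and Moran's I were tested on simulated data, and the other steps were not. Promoters came from RefSeq. The computations ran in Python 3.11.15 with matplotlib 3.10.9, pandas 2.3.3, numpy 2.4.6 and scipy 1.17.1.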

Additional observations from a re-analysis of the deposited data

Results flagged for a closer look

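The D cyclin Ccnd3 went opposite ways under different ligands. Its log2 ratio against VitaminA was 1.12 in BMS961+BMS641 and -1.05 in ATRA, and no quadrant of either section crossed the VitaminA quadrants. The kinetochore motor Cenpe did the same, with 1.68 in BMS961+BMS641 beside -1.34 in ATRA and -1.04 in BMS753. These differences were not tested, since each treatment has 1 section, the sections share VitaminA as their reference, and the dose of BMS961+BMS641 differed from that of the other ligands. By the share of spots above the lowest class, Ccnd3 kept its signs but passed 2-fold in neither section (0.20 in BMS961+BMS641 and -0.49 in ATRA). Ccnd3 was already seen in 85.0% of VitaminA spots, so that share could not rise 2-fold and sets no limit on its BMS961+BMS641 ratio. After centring on all genes its ratio in ATRA was -0.72. By the share of spots Cenpe also kept its signs and did not pass 2-fold in BMS961+BMS641 (0.83) or ATRA (-0.95), and in BMS753 it was at -0.92 with the lowest class at 0 and -0.91 with a pseudocount of 5 ppm.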

How the results depend on the processing

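No paired analysis was possible because each treatment has 1 section and no replicate numbers. Of the 38 called ratios of single genes, no sign turned under any alternative. Past 2-fold stayed 30 after centring, 35 after dividing each spot by its total, 37 with the lowest class at 0, 27 with a pseudocount of 5 ppm, 26 by the share of spots in which a gene exceeded the lowest class (percent of spots), and all 22 that a filter of 20 ppm kept. In ATRA against VitaminA the 10 lower genes became 14 with the lowest class at 0 and 11 with each spot divided by its total. They became 12 with no filter and 12 without the 10 genes with most signal. With a pseudocount of 5 ppm they became 9, with the 20 ppm filter 7 and after centring 7. By the percent of spots 10 were lower, 6 of them the same. The 3 higher genes became 2 with that pseudocount and 2 by the percent of spots. The S phase median of -0.23 there became -0.54 with each spot divided by its total, 0.15 with the 20 ppm filter and -0.71 with no filter. It became 0.10 after centring and -0.65 without the 10 genes with most signal, and the mitosis median became -0.36 after centring. In BMS753 against VitaminA the 3 higher genes became 1 with the 20 ppm filter, 1 after centring and 1 by the percent of spots, which gave 12 lower genes. The 6 lower genes became 4 with a pseudocount of 5 ppm or the 20 ppm filter and 5 with the lowest class at 0. They became 8 with each spot divided by its total, with no filter or after centring. The S phase median there became -0.57 after centring, and the mitosis median -0.33 after centring, -0.65 with the 20 ppm filter and -0.70 by the percent of spots. In BMS961+BMS641 against VitaminA the 7 lower genes became 4 with a pseudocount of 5 ppm and 2 with the 20 ppm filter. They became 10 with the lowest class at 0, 8 with each spot divided by its total, 9 with no filter and 9 by the percent of spots. The 3 higher genes became 1 by the percent of spots, which was Bub1 and none of the 3. Ccnd3 could not rise 2-fold by that measure. The S phase median of this comparison became -0.30 after centring and -0.22 by the percent of spots. The mitosis median became -0.67 with the lowest class at 0, -0.35 with a pseudocount of 5 ppm, -0.24 after centring and -0.0097 by the percent of spots. In BMS753 against ATRA the 4 higher genes became 7 with the lowest class at 0, 7 with no filter, 1 with a pseudocount of 5 ppm, 0 with the 20 ppm filter, 1 after centring and 2 by the percent of spots, and the 2 lower genes became 4 after centring. Its S phase median became -0.85 after centring and its mitosis median -0.016 after centring and 0.21 by the percent of spots. The cause of these shifts was not tested, beyond the fewer genes that a stricter filter leaves.

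Leaving out each quadrant in turn, the number of lower genes ranged from 9 to 12 in ATRA, 5 to 7 in BMS753 and 7 to 7 in BMS961+BMS641, and that of higher genes from 3 to 3, 1 to 4 and 3 to 3. For BMS753 against ATRA the ranges were 4 to 6 higher and 2 to 3 lower. The S phase medians ranged from -0.29 to -0.14, -0.31 to -0.070, -0.62 to -0.47 and, in the last comparison, -0.26 to -0.013, and the mitosis medians from -0.81 to -0.55, -0.080 to 0.16, -0.49 to -0.35 and 0.59 to 0.85. With each spot divided by its total, the correlation of S phase and mitosis scores turned to -0.0435, -0.0971, -0.0105 and -0.0801, and Moran's I of the mitosis score in VitaminA to -0.0331. With the lowest class at 0 the correlation stayed positive, between 0.322 and 0.436. The sums without Stil, Pola1 or Ccnd3 were chosen after seeing the data.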
